A study of Mus musculus with 9 samples.

Results

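The genes described here are 30 markers of dividing cells, taken as the rows of the deposited expression table whose symbol is on a list of DNA replication and mitosis genes. All 30 of 30 were found among the 23799 genes of the table. They were read as 8 S-phase members, which make or copy DNA (Mcm2, Mcm3, Mcm5, Mcm6, Pcna, Rrm2, Tyms and Tk1), and 22 mitotic members, which drive or carry out chromosome segregation and division. RNA had been sequenced from mouse tumour cells sorted by a fluorescent protein from primary tumours and metastases of a breast cancer model (BC) and a pancreatic ductal adenocarcinoma model (PDAC). The question was how tumour cells at the primary and metastatic sites differ.

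The BC libraries were GFP-sorted cells derived from 4T1-eGFP (4T1 is a mammary carcinoma line of the mouse, here labelled with eGFP), taken at 28 days: primary tumours 1 and 5, and lung metastases 4 and 6. The PDAC libraries were YFP-sorted cells: primary tumours 1 and 5, liver metastases 1 and 5, and a single lung metastasis, number 1. All PDAC mice carried p48-Cre, p53F/+, KrasL/+ and ROSA-LSL-YFP, with Cre driven by the p48 (Ptf1a) gene of the pancreatic lineage, so YFP marks cells in which Cre has acted and their descendants. Number 1 also carried SIRT6F/F and was 25.67 weeks old, and number 5 was 28.95 weeks old without that allele in its label, so genotype, age and number cannot be told apart. The BC cells come from 1 cell line, and the labels do not say whether the BC libraries of a group came from separate animals, so the p-values rest on a spread between libraries that may be partly technical.

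A dividing cell switches its genes on in 2 main waves. The first, under E2F transcription factors, which the retinoblastoma family holds in check, supplies the helicase, nucleotide synthesis enzymes and clamp needed to copy DNA. The second, under the MuvB complex with B-Myb and FoxM1, supplies the cyclins, kinases, kinesins and checkpoint proteins of mitosis. RNA of the second wave is low in resting and differentiated cells and is widely used as a sign of proliferation, in tumour cells as in the precursors of blood cells.

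The promoters of both groups were searched for words known from cell cycle genes. RefSeq (GRCm38.p6) had a promoter entry for 26 of the 30 members, with none for Ccna2, Aurkb, Kif20a and Tpx2, and each entry runs from 250 bases before the start site to 50 after it. Words were searched on both strands: CHR as TTTGAA or TTCGAA (the letters bound by MuvB), the CCAAT box as CCAAT, and the E2F word as TTTCCCGC, TTTGGCGC, TTTCGCGC or TTTGCCGC. The CCAAT box was common in both groups, in 16 of 18 mitotic (88.9%) and 6 of 8 S-phase promoters (75.0%), and was found in 37.4% of all 32851 promoters in the table. CHR was present in 14 of 18 mitotic promoters (77.8%), in 1 of 8 S-phase promoters (12.5%) and in 19.2% of all promoters. CHR together with at least 2 CCAAT boxes was present in 10 of 18 mitotic promoters (55.6%), in 0 of 8 S-phase promoters and in 2.31% of all promoters. An E2F word was present in 3 of 8 S-phase promoters (37.5%), in 1 of 18 mitotic promoters (5.56%) and in 2.26% of all. The differences between the groups were not tested. These are matches of letters and not measured binding sites, and promoters of either group that lack a word lack only those letters in this window.

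Below are 5 promoters from 200 bases before to 20 bases after the start site, 5′ to 3′ on the gene's strand, chosen because the results turn on these genes. Capitals mark the CHR, CCAAT and E2F words on either strand, and neighbouring words can overlap. Mcm6 (chr1:128359686-128359905, minus strand) stands for the S-phase members with E2F words. Ccnb2 (chr9:70421535-70421754, minus strand), Cdc20 (chr4:118437324-118437543, minus strand) and Ube2c (chr2:164769729-164769948, plus strand) show CHR beside several CCAAT boxes, and Cdk1 (chr10:69352893-69353112, minus strand) carries all 3 kinds of word.
Mcm6: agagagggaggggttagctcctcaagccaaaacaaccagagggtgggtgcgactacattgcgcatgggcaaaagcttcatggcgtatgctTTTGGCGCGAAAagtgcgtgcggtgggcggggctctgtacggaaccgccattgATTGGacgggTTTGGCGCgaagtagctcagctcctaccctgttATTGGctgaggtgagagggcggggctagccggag
Ccnb2: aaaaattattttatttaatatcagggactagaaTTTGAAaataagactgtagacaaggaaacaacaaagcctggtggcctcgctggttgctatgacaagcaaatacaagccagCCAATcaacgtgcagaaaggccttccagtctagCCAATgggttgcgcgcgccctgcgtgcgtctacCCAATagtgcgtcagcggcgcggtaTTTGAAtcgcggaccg
Cdc20: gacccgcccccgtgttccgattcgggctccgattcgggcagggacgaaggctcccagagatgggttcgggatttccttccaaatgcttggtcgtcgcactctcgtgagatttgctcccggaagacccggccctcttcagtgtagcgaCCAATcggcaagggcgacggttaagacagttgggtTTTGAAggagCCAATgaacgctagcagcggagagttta
Cdk1: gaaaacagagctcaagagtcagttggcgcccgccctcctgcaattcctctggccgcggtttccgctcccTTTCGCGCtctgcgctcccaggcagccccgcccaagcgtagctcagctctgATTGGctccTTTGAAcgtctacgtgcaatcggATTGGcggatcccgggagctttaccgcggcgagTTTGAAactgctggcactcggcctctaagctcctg
Ube2c: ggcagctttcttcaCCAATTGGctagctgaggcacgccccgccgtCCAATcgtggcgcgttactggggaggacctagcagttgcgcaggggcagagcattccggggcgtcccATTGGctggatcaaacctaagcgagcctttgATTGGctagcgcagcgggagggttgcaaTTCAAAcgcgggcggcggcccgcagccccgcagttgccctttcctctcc

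Values are RPKM, reads scaled by gene length and by a scaling total per library, which allow levels of different genes to be compared. The libraries differed widely in how many genes they detected, and this touches every result below. Genes above 0 numbered between 15907 and 20478 in 5 libraries, 12144 in PDAC liver metastasis 1, 10938 in BC lung metastasis 6, 10410 in PDAC primary 5 and 9530 in the PDAC lung metastasis. Estimated from the values and gene lengths, BC primary 5 had the most reads on genes, 128000000, and the PDAC lung metastasis the fewest, 21300000. The scaling totals estimated in the same way were 131000000 and 12800000 there. In liver metastasis 5 the scaling total was 36400000 and the reads on genes 65200000. How the totals were set is not given in the sources used here. Of 20 genes that cells generally use, 3 were under 0.1 RPKM in PDAC primary 5, 2 in the PDAC lung metastasis, 1 each in BC lung metastasis 6 and PDAC liver metastasis 1, and none in the other 5 libraries. A value of 0 in these libraries is therefore given as listed at 0 and not as absence of the transcript. The sorted fractions also differed in the markers of other cells. The summed level of 6 erythroid markers was 18.5 to 433 RPKM in the 4 BC libraries and 219 in PDAC primary 5, but 46939 in PDAC primary 1, 281420 in liver metastasis 1, 157420 in liver metastasis 5 and 271010 in the PDAC lung metastasis. The summed level of 5 epithelial markers (Krt8, Krt18, Krt19, Epcam and Cdh1) was 2813 to 5596 RPKM in BC, 2070 and 13446 in the PDAC primaries, 6181 in liver metastasis 1, 211 in liver metastasis 5 and 124 in the PDAC lung metastasis. In such bulk samples, fewer cells of a type and less RNA per cell cannot be told apart.

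The BC tumours held most of the highest levels. Of the 30 members, 18 had their highest library among the BC primaries, 8 among the BC lung metastases, 3 among the PDAC liver metastases and 1, Ube2c, in the PDAC lung metastasis. No PDAC primary was highest for any member.

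**Figure D1:**
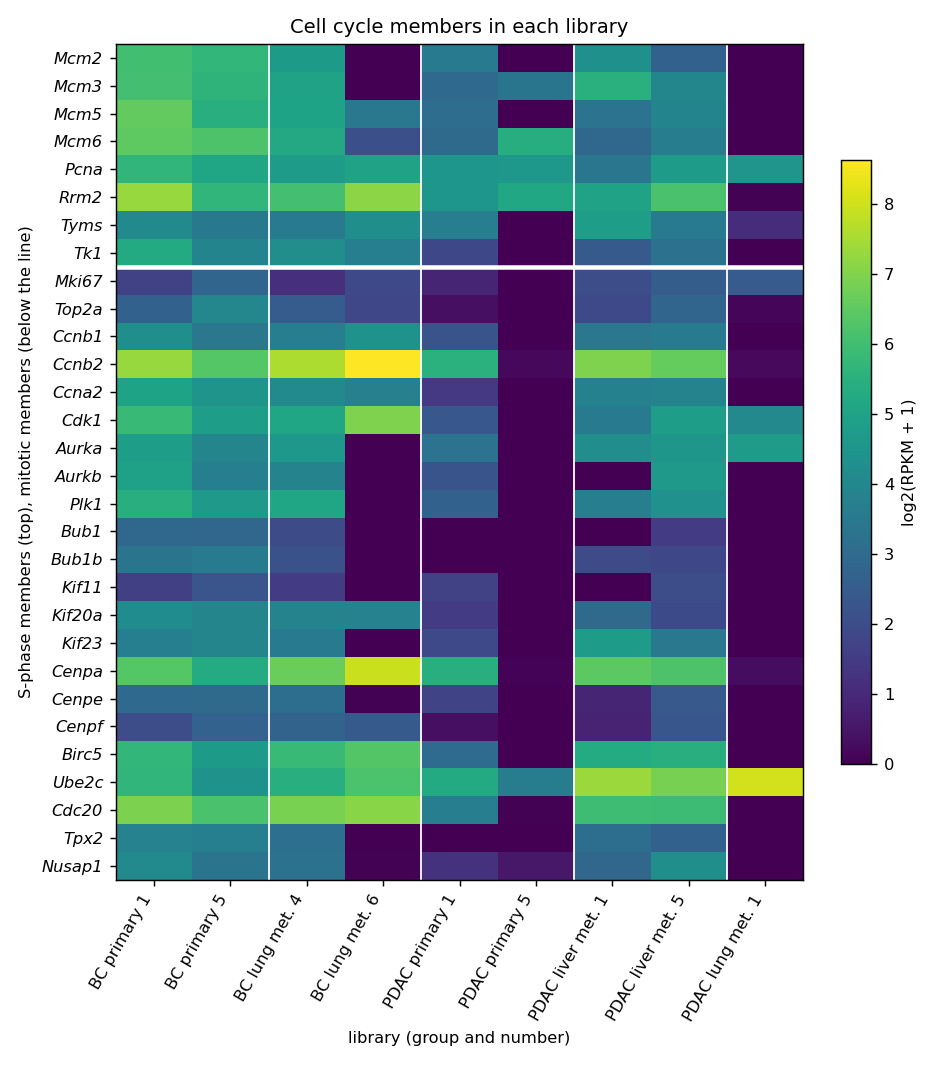
Level of each of the 30 members (rows; 8 S-phase above the white line, 22 mitotic below) in each of the 9 libraries (columns), as log2(RPKM + 1) on the colour scale. The BC primaries and BC lung metastasis 4 are bright across the rows, and PDAC primary 5 and the PDAC lung metastasis are dark in 23 and 22 of 30 rows, where the value is under 0.1 RPKM.

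Among the S-phase members, the Mcm genes encode subunits of the helicase that unwinds DNA at origins. Mcm2 was at 64.4 and 51.5 RPKM in the BC primaries, 24.8 and 0.00635 in BC lung metastases 4 and 6, 10.8 and 0 in PDAC primaries 1 and 5, 19.3 and 5.46 in liver metastases 1 and 5, and listed at 0 in the PDAC lung metastasis. Mcm5 followed the same order of libraries given here at 92.7 and 41.6, 31.3 and 10.0, 7.48 and 0.00913, 8.82 and 13.8, and 0.0224 RPKM. Both genes were higher in each BC primary than in every other library. Mcm3 was at 64.9 and 47.7, 30.4 and 0.0143, 6.73 and 9.23, 43.6 and 14.6, and 0 RPKM. Mcm6 was at 89.1 and 72.9, 36.0 and 3.35, 6.88 and 40.4, 6.45 and 11.4, and 0.0179 RPKM. For Mcm6 the order within the PDAC primaries was the reverse of that for most members, since primary 5 was above primary 1.

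Pcna, the sliding clamp of the DNA polymerases, was the steadiest S-phase member, at 50.1 and 33.1 RPKM in the BC primaries, 26.2 and 30.3 in the BC lung metastases, 22.4 and 23.3 in the PDAC primaries, 9.45 and 26.3 in the liver metastases and 21.4 in the PDAC lung metastasis. It did not come near 0 in any library. Rrm2, the small subunit of ribonucleotide reductase that makes deoxynucleotides, was at 156 and 50.1, 65.7 and 139, 22.4 and 35.1, 30.6 and 70.1 RPKM in the same order, and at 0.0282 in the PDAC lung metastasis. Its 8 other libraries were all above 20 RPKM. Tyms, thymidylate synthase, was at 16.05 and 10.2, 10.4 and 18.8, 11.8 and 0, 27.4 and 10.7, and 1.20 RPKM. Tk1, the thymidine salvage kinase, was at 37.8 and 14.0, 18.3 and 12.3, 2.65 and 0, 4.45 and 8.47, and 0 RPKM. For Tk1 all 4 BC libraries lay above all 5 PDAC libraries, while for Tyms the models overlapped.

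Of the mitotic members, Mki67 encodes the chromosome coat protein Ki-67, the usual proliferation marker, and Top2a the topoisomerase that untangles sister chromatids. Mki67 was at 2.25 and 6.09 RPKM in the BC primaries, 1.22 and 2.74 in the BC lung metastases, 0.865 and 0 in the PDAC primaries, 3.11 and 4.78 in the liver metastases and 4.55 in the PDAC lung metastasis. Top2a was at 5.48 and 14.9, 4.67 and 2.53, 0.283 and 0.00352, 2.78 and 6.04, and 0.0777 RPKM. Both were low in the PDAC primaries and separated them from the liver metastases without overlap.

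Cyclins B1 and B2 with Cdk1 form the kinase that starts mitosis, and cyclin A2 acts just before. Ccnb2 reached the highest level of any member, at 156 and 81.3 RPKM in the BC primaries, 188 and 396 in the BC lung metastases, 44.7 and 0.145 in the PDAC primaries, 125 and 94.9 in the liver metastases and 0.152 in the PDAC lung metastasis. Cdk1 was at 55.7 and 26.8, 33.3 and 123, 4.10 and 0, 11.0 and 27.8, and 15.7 RPKM, so the PDAC lung metastasis lay between the liver metastases. Ccnb1 was at 18.7 and 9.71, 12.3 and 20.1, 3.71 and 0, 9.71 and 10.7, and 0 RPKM. For all 3 genes both liver metastases were above both PDAC primaries, and PDAC primary 5 was the lowest or among the lowest libraries. In the PDAC lung metastasis the kinase Cdk1 was thus well above 0, and both cyclin B genes were under 0.2 RPKM.

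Cdc20 and Ube2c serve the anaphase-promoting complex, which ends mitosis by marking cyclin B and securin for degradation: Cdc20 activates it and Ube2c is its ubiquitin-conjugating enzyme. Cdc20 was at 122 and 69.9 RPKM in the BC primaries, 119 and 136 in the BC lung metastases, 12.0 and 0.0342 in the PDAC primaries, 60.4 and 59.6 in the liver metastases and 0 in the PDAC lung metastasis. Ube2c was at 50.4 and 20.3, 41.3 and 72.2, 37.7 and 11.8, 161 and 115, and 266 RPKM. Ube2c was the only member for which all 3 PDAC metastases lay above all 6 other libraries. The summed erythroid markers were also higher in the 3 PDAC metastases (281420 and 157420 RPKM in liver metastases 1 and 5 and 271010 in the lung metastasis) than in PDAC primaries 1 and 5 (46939 and 219), although Klf1 was listed at 0 in liver metastasis 1 and the lung metastasis, and Epor at 0 in the latter. The neutrophil markers summed to 8699, 167230 and 20715 RPKM in the same 3 metastases and to at most 2270 in the 6 other libraries. The macrophage markers summed to 7209, 8812 and 10584 RPKM there and to at most 2051 in the others. The epithelial, B and plasma cell and T cell sums did not have this order. The part of any of these cells in the Ube2c level was not tested.

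Plk1, a mitotic kinase, was at 42.1 and 24.4 RPKM in the BC primaries, 32.4 and 0 in the BC lung metastases, 5.44 and 0.0145 in the PDAC primaries, 12.1 and 19.8 in the liver metastases and 0 in the PDAC lung metastasis. Birc5 (survivin), a subunit of the chromosomal passenger complex of the kinase Aurkb, was at 51.5 and 25.1, 54.9 and 78.6, 7.04 and 0, 38.7 and 41.9, and 0.0229 RPKM. Its kinase partner Aurkb was at 30.03 and 12.1, 13.5 and 0.00727, 3.71 and 0, 0 and 24.1, and 0 RPKM. So in liver metastasis 1 Birc5 was listed at 38.7 RPKM with Aurkb at 0. Aurka, the spindle pole kinase, was at 27.2 and 14.3, 23.1 and 0.0169, 8.68 and 0, 17.7 and 22.7, and 26.2 RPKM, and its activator Tpx2 was at 13.3 and 12.2, 7.99 and 0.00458, 0 and 0, 7.61 and 5.37, and 0 RPKM. In the PDAC lung metastasis Aurka was thus near its highest level and Tpx2 was listed at 0.

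Cenpa, the histone H3 variant of centromeres, was at 80.0 and 38.6 RPKM in the BC primaries, 99.0 and 243 in the BC lung metastases, 42.2 and 0.0638 in the PDAC primaries, 87.8 and 72.8 in the liver metastases and 0.219 in the PDAC lung metastasis. The kinetochore proteins Cenpe and Cenpf, the checkpoint kinases Bub1 and Bub1b, and the spindle motor Kif11 were all under 11 RPKM in every library. The cytokinesis kinesins Kif20a and Kif23 and the microtubule binder Nusap1 reached 17.2, 26.3 and 18.5 RPKM, and Ccna2 reached 30.9. Genes with a low mean in the BC primaries were often near 0 in the libraries with few genes. Of 4209 tested genes averaging 2 to 10 RPKM in the BC primaries, 46.3% were under 0.1 RPKM in BC lung metastasis 6, 51.0% in PDAC primary 5 and 54.1% in the PDAC lung metastasis. Of 2593 genes averaging 10 to 30 RPKM, as Ccna2, Kif20a, Kif23 and Nusap1 did, 19.7%, 32.9% and 36.8% were.

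Members near 0, under 0.1 RPKM, were found in 5 of the 9 libraries. They numbered 12 of 30 in BC lung metastasis 6 (40.0%), 3 in PDAC primary 1 (10.0%), 23 in PDAC primary 5 (76.7%), 3 in liver metastasis 1 (10.0%) and 22 in the PDAC lung metastasis (73.3%). Over all 7438 tested genes whose mean in the BC primaries lay in the members' range, 2.99 to 118 RPKM, the shares near 0 were 26.3%, 6.0%, 35.9%, 19.6% and 39.0% in the same libraries. In liver metastasis 1 the members were near 0 less often than these genes, and in the other 4 libraries more often. In PDAC primary 1 and in liver metastasis 1 this rests on 3 members each, and the range holds many low genes. In liver metastasis 1, 2 of 6 members averaging 2 to 10 RPKM in the BC primaries were near 0, against 34.8% of 4209 genes. At 10 to 30 RPKM it was 1 of 11 against 13.6%, and at 30 to 130 RPKM 0 of 13 against 4.2%. Among genes averaging 30 to 130 RPKM in the BC primaries, 7 of 13 members were near 0 in PDAC primary 5 against 13.8% of 1707 genes, and 8 of 13 in the PDAC lung metastasis against 16.9%. These shares are a description of single libraries and carry no test.

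The members that stayed above 1 RPKM differed between the libraries with fewest genes. PDAC primary 5 had 5 members, of which 4 are S-phase genes (Mcm3, Mcm6, Pcna and Rrm2) and the other is Ube2c. The PDAC lung metastasis had 6 (Aurka, Cdk1, Mki67, Pcna, Tyms and Ube2c), and BC lung metastasis 6 had 18. Pcna and Ube2c were above 1 RPKM in all 3 of these libraries, and 10 members (Aurkb, Bub1, Bub1b, Cenpe, Kif11, Kif23, Mcm2, Nusap1, Plk1 and Tpx2) in none of them.

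**Figure D2:**
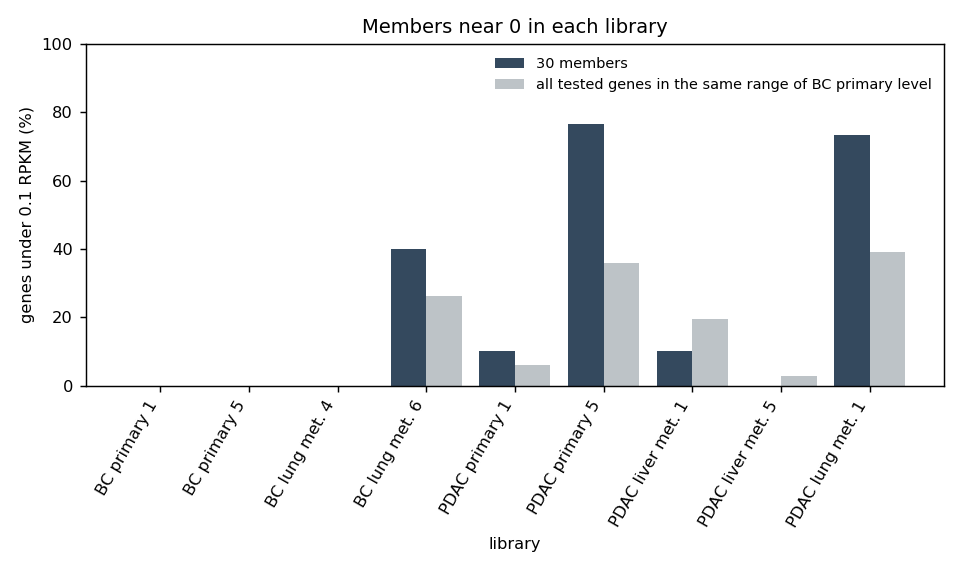
Share of genes under 0.1 RPKM (vertical axis, percent) in each library, for the 30 members (dark bars) and for all 7438 tested genes in the same range of BC primary level (grey bars). The dark bars reach 76.7% in PDAC primary 5 and 73.3% in the PDAC lung metastasis, above grey bars of 35.9% and 39.0%.

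Differences between groups were tested with limma on log2(RPKM + 1) over 12832 genes, those that reached 1 RPKM in 2 or more libraries, a filter that all 30 members passed. A gene was called at a Benjamini-Hochberg adjusted p under 0.05, and differences are given on the log2 scale with the standard error of the fit. No member was called in any of the 6 comparisons, so the differences below are values and not established changes. The direction and size of each are set beside those of all genes tested.

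In the BC model, the differences between lung metastases and primaries were of mixed sign, in shares near those over all genes, with the 4 helicase genes all negative. Of the 30 members, 20 had negative and 10 had positive differences, against 63.1% negative and 35.6% positive over all genes tested, and the median was -0.99 against -0.29 over all genes. With 1 library left out the members' median ranged from -1.24, without metastasis 4, to -0.37, without metastasis 6. The S-phase median was -1.17 and the mitotic median -0.99. No gene of 12832 was called (0.00%), while 113 genes (0.881%) had an unadjusted p under 0.05 and a positive difference, and 152 (1.18%) a negative one. Of the members, Bub1b was among the latter, with -2.35 ± 0.95, and none among the former. The lowest limma adjusted p of a member was 0.974.

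The lowest differences were those of Mcm2 (-3.52 ± 1.69), Mcm3 (-3.33 ± 1.50) and Mcm6 (-2.69 ± 1.27). They rested largely on metastasis 6: without it they were -1.18, -0.85 and -1.14, and without metastasis 4 they were -5.86, -5.80 and -4.23. Both metastases were below both primaries for 14 members, a pattern found in 27.0% of all genes tested: Bub1, Bub1b, Ccna2, Kif11, Kif20a, Kif23, Mcm2, Mcm3, Mcm5, Mcm6, Nusap1, Pcna, Top2a and Tpx2. Both metastases were above both primaries for 3 members, against 15.8% of all genes: Cenpa (1.46 ± 1.44), Ccnb2 (1.27 ± 1.39) and Birc5 (0.85 ± 1.13). When only the 2 BC groups entered the fit, Mcm6 and Mcm2 passed the threshold with limma adjusted p of 0.00572 and 0.0116, among 73 of 10384 genes called, and that fit takes the spread from 4 libraries.

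Library 6 weighed on these values, since 12 of the 30 members were near 0 there. In library 4, which detected 18665 genes, all 8 S-phase members were at 0.428 to 0.792 of the mean of the BC primaries (median 0.586), and the 22 mitotic members at 0.292 to 1.67 (median 0.838). Against BC primary 5 alone, however, library 4 was higher for 3 of 8 S-phase and 12 of 22 mitotic members. The BC primaries themselves differed, with 23 of 30 members higher in primary 1, all 8 S-phase genes included. The summed level of 4 neutrophil markers was 2270 and 1470 RPKM in lung metastases 4 and 6 against 25.9 and 24.8 in the primaries, and the part of these cells in the member differences was not tested.

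**Figure D3:**
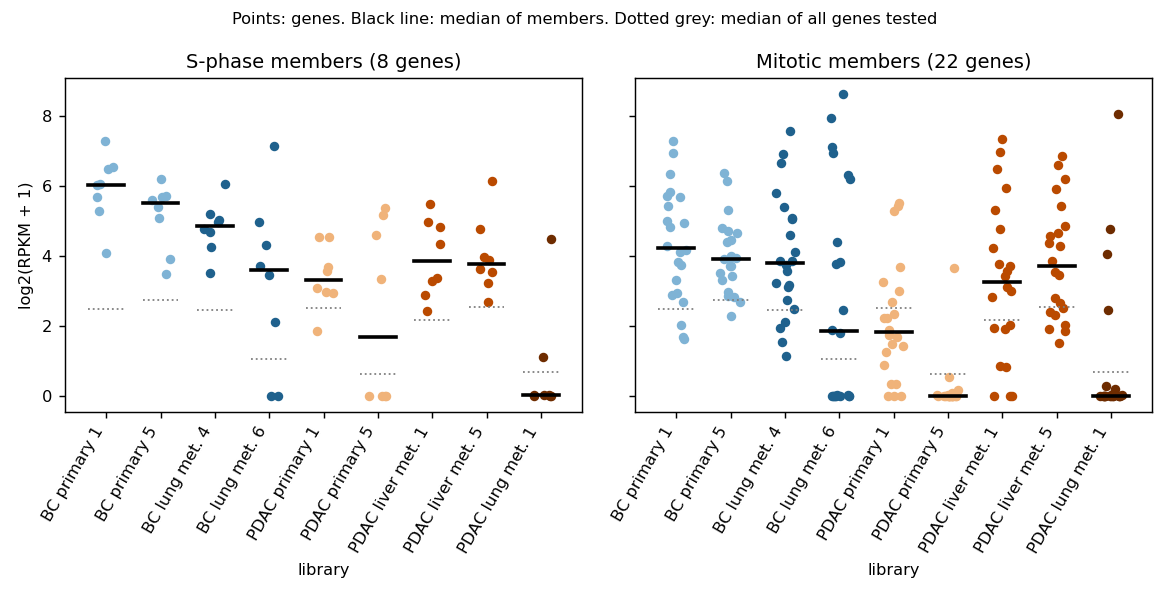
Each point is 1 member in 1 library, as log2(RPKM + 1), with the 8 S-phase members on the left and the 22 mitotic members on the right. Black lines mark the median of the members and dotted grey lines the median of all genes tested. The mitotic median lies lower in both PDAC primaries than in the liver metastases, and lies at about 0 in PDAC primary 5 and the PDAC lung metastasis.

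In the PDAC model the liver metastases had higher mean values than the primaries for all 22 mitotic members, although Kif11 (0.17 ± 0.98) was negative under 5 alternatives, among them both scalings (-0.072 and -0.0028), and was listed at 0 in liver metastasis 1, as was Aurkb. The differences of the 30 members were positive for 28 and negative for 2, Mcm6 (-0.91 ± 1.27) and Pcna (-0.50 ± 0.84), against 53.9% positive and 45.4% negative over all genes tested. The median was 2.11 against 0.08 over all genes, with 2.64 for the mitotic and 1.65 for the S-phase members. Of 12832 genes 1 was called (0.00779%), the hepatocyte gene Apoa2, and no member. At an unadjusted p under 0.05, 9 members were higher (all mitotic) against 4.89% of all genes, and none lower against 1.50%.

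The largest differences were those of Cdc20 (4.06 ± 1.12, limma adjusted p = 0.395), Ccnb2 (3.92 ± 1.39, 0.579) and Birc5 (3.86 ± 1.13, 0.442). Without PDAC primary 5 they were 2.23, 1.26 and 2.36, and without PDAC primary 1 they were 5.88, 6.58 and 5.37. Both liver metastases were above both primaries for 22 members, against 15.4% of all genes tested, and no member showed the opposite order, against 10.2%. For Bub1, 1 of the 22, the value in liver metastasis 1 was near 0, at 0.0133 RPKM or about 1 estimated read. It was listed at 0 in both primaries. The 8 that overlapped were Aurkb, Cenpe, Kif11, Mcm2, Mcm6, Pcna, Rrm2 and Tyms, which include 5 of the 8 S-phase members. The gap to the primaries depended on which primary was used. Against primary 1, which detected 15907 genes, the median of the mitotic members was 1.34 in liver metastasis 1 and 1.66 in liver metastasis 5, and that of the S-phase members 0.51 and 0.73. Against primary 5 the mitotic medians were 3.26 and 3.51 and the S-phase medians 2.28 and 1.83. Against primary 1 alone, 19 of 22 mitotic members were still higher in liver metastasis 1 and 22 of 22 in liver metastasis 5.

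Without PDAC primary 1, 8 members were called higher (Birc5, Ccna2, Ccnb2, Cdc20, Cdk1, Cenpa, Tyms and Ube2c), but 1032 of 12278 genes were called as well, and the remaining primary is the one with 23 members near 0. Markers of other cells moved with the liver metastases, beside the erythroid sums above. In liver metastases 1 and 5 against PDAC primaries 1 and 5, the 4 neutrophil markers summed to 8699 and 167230 RPKM against 1090 and 12.9, and the 4 macrophage markers found to 7209 and 8812 against 2051 and 681. The 5 hepatocyte markers summed to 759 and 1964 RPKM against 1.89 and 248. Markers of neutrophil progenitors, which divide, summed to 2128 RPKM in liver metastasis 5 but to 0.0936 in liver metastasis 1. The part of any of these cells in the member levels was not tested.

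**Figure D4:**
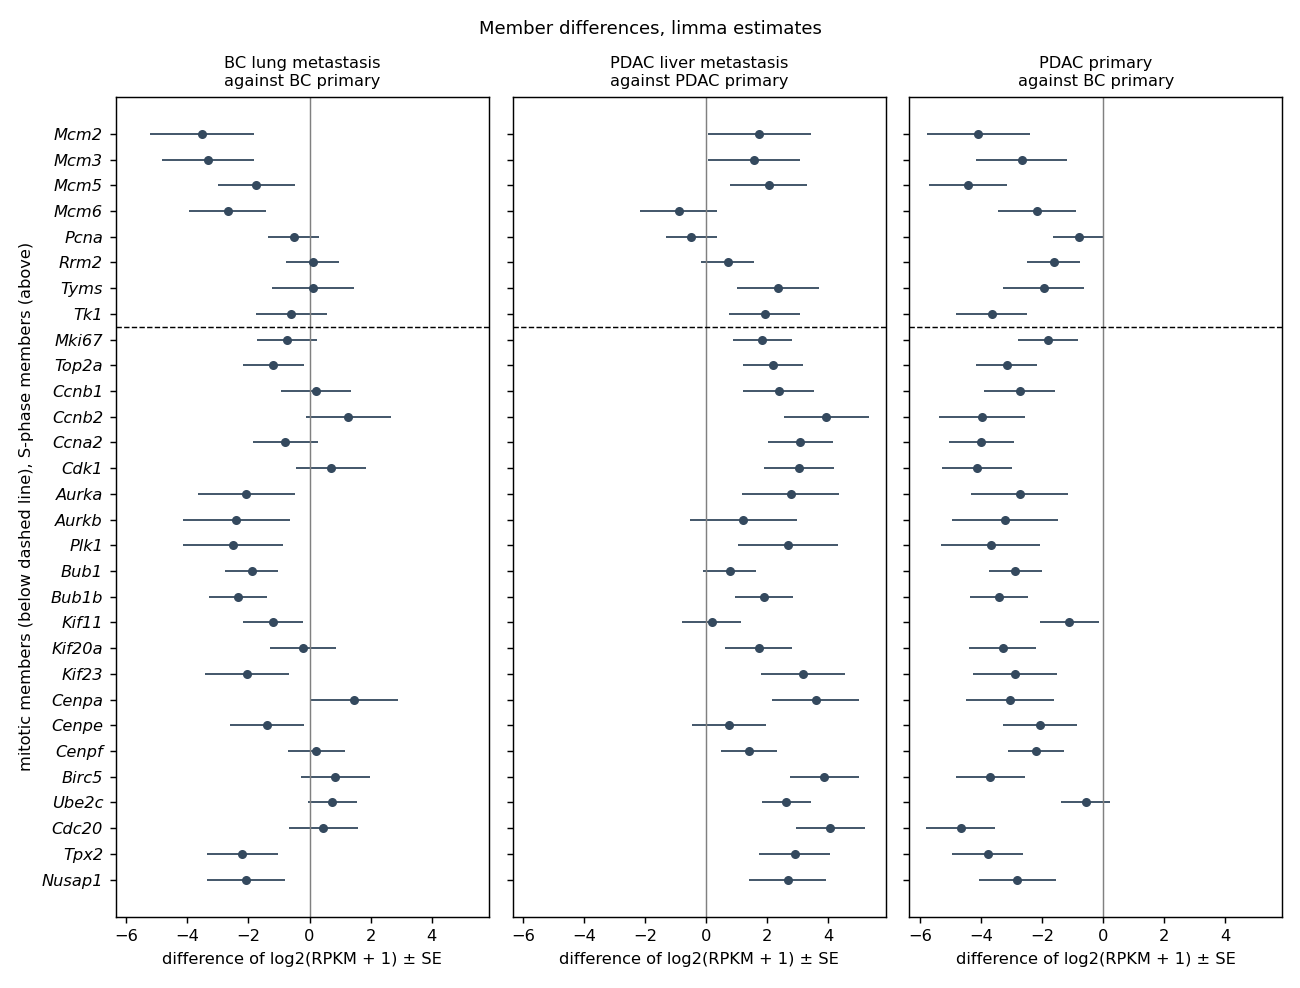
Difference of each member on the log2(RPKM + 1) scale (horizontal axis) with its standard error from limma, in 3 comparisons, with the S-phase members above the dashed line and the mitotic members below it. All 22 mitotic members lie to the right of 0 in the PDAC liver panel (Kif11, at 0.17, was negative under both other scalings), all 30 members lie to the left of 0 in the PDAC primary against BC primary panel, and the BC lung panel holds members on both sides.

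The single PDAC lung metastasis, which has no replicate and is assumed by the fit to vary like the other groups, had 2 groups of members: 4 above both PDAC primaries, and most others at or near 0. The differences were positive for 4 members, Ube2c (3.58 ± 0.98, limma adjusted p = 0.138), Aurka (3.13 ± 1.96), Cdk1 (2.88 ± 1.40) and Mki67 (2.02 ± 1.19), negative for 24 and 0 for Bub1 and Tpx2, against 33.7% positive and 63.0% negative over all genes. Over all genes 75 were called (0.584%), with no member among them. At an unadjusted p under 0.05, 1 member was higher (Ube2c) against 5.78% of all genes and 2 were lower (Rrm2 and Mcm6) against 7.97%. The median was -0.89 against -0.50 over all genes, with -1.65 for the S-phase and -0.78 for the mitotic members. The library lay above both primaries for these 4 members, against 23.9% of all genes, and below both for 9, against 34.4%. The gap depended on the primary, and only primary 1 shares the number, age and SIRT6F/F label of this library. Against primary 1 the members' median was -1.81, with 4 positive and 23 negative, and the median of all genes was -0.60. Against primary 5 both medians were 0.0, with 12 members positive and 10 negative.

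Rrm2 had the lowest difference there, -4.82 ± 1.06 with a limma adjusted p of 0.0754, followed by Mcm6 (-4.15 ± 1.55) and Mcm3 (-3.15 ± 1.84). Rrm2 passed the threshold with a pseudocount of 0.5 or 0.1 in place of 1 (adjusted p = 0.0470 and 0.0154). It also passed without PDAC primary 1, with Ube2c and Mcm6, among 1547 genes called. Without PDAC primary 5 the called members were Ccnb2 (-5.31) and Cenpa (-5.15), among 170 genes. Of the listed markers, Sftpc of lung epithelium was at 34207 RPKM in this library and under 1 in both primaries, the epithelial sum was 124 RPKM and the erythroid sum 271010. Against PDAC primaries 1 and 5, the neutrophil markers summed to 20715 RPKM against 1090 and 12.9, the macrophage markers to 10584 against 2051 and 681, and the endothelial markers to 322 against 3.69 and 0, where Cldn5 was called higher (limma adjusted p = 0.0335). The part of these cells in the member differences was not tested.

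The primaries of the 2 models differed in the same direction for every member. All 30 were lower in PDAC, against 58.4% of all genes tested, with a median of -2.98 against -0.31, -2.42 for the S-phase and -3.11 for the mitotic members. Of 12832 genes 4 were called (0.0312%), with no member among them, and 16 members were lower at an unadjusted p under 0.05 against 9.43% of all genes, and none higher against 3.76%. The lowest differences were those of Cdc20 (-4.67 ± 1.12, limma adjusted p = 0.172), Mcm5 (-4.43 ± 1.27, 0.221) and Cdk1 (-4.13 ± 1.14, 0.217). The smallest were those of Ube2c (-0.57 ± 0.80), Pcna (-0.81 ± 0.84) and Kif11 (-1.11 ± 0.98).

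Both PDAC primaries were below both BC primaries for 26 members, against 31.5% of all genes, with overlap for Cenpa, Kif11, Tyms and Ube2c. With PDAC primary 1 alone, which detected more genes than primary 5, the values were below BC primary 1 for 29 members and below BC primary 5 for 27, with medians of -2.69 and -2.05, where the median of all genes was -0.01 and -0.05. In that library the 4 B and plasma cell markers found summed to 2863 RPKM against 1.59 and 1.70 in the BC primaries, the neutrophil markers to 1090 against 25.9 and 24.8, the macrophage markers to 2051 against 253 and 344, and the erythroid markers to 46939 against 19.3 and 18.5. In PDAC primary 5 the same 4 sums were 0.138, 12.9, 681 and 219 RPKM. All 30 members were lower there than in either BC primary, with medians of -3.97 and -3.72 against BC primaries 1 and 5. The medians of all genes were -0.57 and -0.77, and 23 members were near 0 in that library. The part of these cells in the difference was not tested. Without PDAC primary 1, 8 members were called lower (Birc5, Ccna2, Ccnb2, Cdc20, Cdk1, Cenpa, Mcm5 and Tk1) among 803 of 12278 genes. The comparison also sets tumours derived from a cell line at 28 days against those of mice with a Cre-driven genotype, so line, model and age cannot be told apart.

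Over both models together, with the model as a covariate, the members had no common direction between 4 primaries and 5 metastases. The differences were positive for 17 and negative for 13, against 40.9% and 59.1% of all genes, with a median of 0.15 against -0.16 over all genes, and 1 gene and no member was called (0.00779%). The S-phase median was -0.50 and the mitotic median 0.49. At an unadjusted p under 0.05, Cdk1 (1.95 ± 0.84) and Ube2c (1.95 ± 0.63) were higher and Mcm6 (-2.30 ± 0.99) was lower, against 2.19% of all genes higher and 2.70% lower. Every member overlapped between the sites, as did nearly all genes, of which 0.366% were higher and 0.538% lower without overlap. This order was read on values pooled over both models, without the covariate, so differences between the models enter it. It therefore says little about the members.

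The metastasis difference was more positive in PDAC liver than in BC lung for all 30 members (Pcna by 0.02), against 62.6% positive and 37.4% negative over all genes tested, when the difference between the models was itself fitted. With 1 library left out the count was 28 to 30, and Pcna was negative under 5 alternatives and Rrm2 without BC primary 1 (-0.21). Its median was 2.66 against 0.53 over all genes, with 2.37 for the S-phase and 2.84 for the mitotic members. No gene was called (0.00%), and 9 members were positive at an unadjusted p under 0.05 against 3.34% of all genes, with the smallest limma adjusted p at 0.874. The largest values were those of Mcm2 (5.26 ± 2.39), Kif23 (5.23 ± 1.94) and Plk1 (5.20 ± 2.32), and the smallest were those of Pcna (0.02 ± 1.19), Rrm2 (0.60 ± 1.23) and Cenpf (1.18 ± 1.30). In 10 members (Bub1, Bub1b, Ccna2, Kif20a, Kif23, Mcm3, Mcm5, Nusap1, Top2a and Tpx2) both BC lung metastases were below both BC primaries while both liver metastases were above both PDAC primaries, an order found in 4.22% of all genes. Bub1 is counted among these 10 with a value near 0, 0.0133 RPKM, in liver metastasis 1, against 0 in both PDAC primaries. Birc5, Ccnb2 and Cenpa lay above both primaries in both models, an order found in 2.45% of all genes. Leaving out the 3 libraries with the fewest genes, which are 1 each of BC lung metastasis, PDAC primary and PDAC lung metastasis, the median of the difference was 1.44.

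Other genes of the same processes were counted over 2 wider lists. Of 24 tested replication genes outside the members, 20 had negative differences in BC lung (63.1% of all genes), 19 had positive differences in PDAC liver (53.9%) and all 24 were lower in PDAC than in BC primaries (58.4%), and none was called. In PDAC lung 10 of them were positive and 14 negative, against 33.7% and 63.0% of all genes. There 8 lay above both primaries and 4 below both, against 23.9% and 34.4%. None of the 8 S-phase members was positive in that comparison. Of 41 tested mitosis genes outside the members, 32 were negative in BC lung, 40 were positive in PDAC liver and all 41 were lower in PDAC primaries, and again none was called. In PDAC lung 4 of the 41 were positive and 29 negative, against the same 33.7% and 63.0% of all genes. The medians in PDAC liver were 0.79 and 1.09, below those of the members. Both liver metastases lay above both primaries for 4 of the 24 replication genes, near the 15.4% of all genes, and for 17 of the 41 mitosis genes. At an unadjusted limma p under 0.05, 0 of the 24 and 3 of the 41 were higher, against 4.89% of all genes. These lists, like the members, were drawn up with results of these data known.

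Upstream of the 2 waves, the lists held 11 G1 cyclins and kinases, 7 kinase inhibitors and 20 regulators of the E2F, retinoblastoma and MuvB families. Ccnd1, a D-type cyclin that starts G1, was at 250 and 158 RPKM in the BC primaries and 158 and 111 in the BC lung metastases. It was at 10.3 and 28.1 in the PDAC primaries, 24.3 and 0.444 in the liver metastases and 2.80 in the PDAC lung metastasis. All 4 BC libraries lay above all 5 PDAC libraries, and the difference between the primaries was -3.46 ± 1.22 (limma adjusted p = 0.287). Cdk4, its kinase, was at 256 and 162, 201 and 331, 79.1 and 155, 165 and 25.3, and 0.410 RPKM. Ccnd3 and Ccnd2, the other D-type cyclins of the list, did not share the order of Ccnd1, and the models overlapped for both. In the same order of libraries, Ccnd3 was at 64.8 and 31.7, 76.3 and 23.7, 33.1 and 0.0283, 58.3 and 399, and 37.9 RPKM. Ccnd2 was at 4.95 and 6.17, 2.95 and 3.04, 8.71 and 2.42, 9.39 and 8.45, and 13.9 RPKM. Cdk4 was the only gene of the cell cycle lists to be called, lower in the PDAC lung metastasis than in the PDAC primaries by a difference of -6.31 ± 1.09 (limma adjusted p = 0.0378), and the call was lost under 8 of 17 alternatives.

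Cdkn1a, the p21 inhibitor of cyclin-dependent kinases and a target of p53, had the opposite order, at 31.9 and 10.9 RPKM in the BC primaries, 34.0 and 41.0 in the BC lung metastases, 122 and 218 in the PDAC primaries, 195 and 206 in the liver metastases and 425 in the PDAC lung metastasis. All 5 PDAC libraries lay above all 4 BC libraries, with a difference of 3.05 ± 0.70 between the primaries (limma adjusted p = 0.160). Cdkn2a, the locus of p16 and p19Arf, was at 0.0102 and 0.00652 RPKM in the BC primaries and 0 in both BC lung metastases, and at 7.86 and 19.0 in the PDAC primaries, 19.5 and 0.141 in the liver metastases and 0 in the PDAC lung metastasis. Cdkn2c, another inhibitor of the list, went the other way, with all 4 BC libraries above all 5 PDAC libraries. It was at 90.2 and 47.2 RPKM in the BC primaries, 75.7 and 88.0 in the BC lung metastases, and 5.92 and 0.0119 in the PDAC primaries. In the liver metastases it was at 0.108 and 15.8, and in the PDAC lung metastasis at 9.33. Of the 7 inhibitors, 5 had positive and 2 negative differences between the primaries, against 41.4% and 58.4% of all genes. Rb1, the retinoblastoma protein gene, was under 6 RPKM in every library.

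E2f1 activates the first wave and Foxm1 the second. E2f1 was at 33.7 and 19.1 RPKM in the BC primaries, 15.5 and 0.0611 in the BC lung metastases, 3.95 and 0.0405 in the PDAC primaries, 9.90 and 7.34 in the liver metastases and 0 in the PDAC lung metastasis. Foxm1 was at 6.03 and 7.52, 2.39 and 2.78, 0.630 and 0, 3.59 and 1.64, and 0 RPKM. Both genes lay lower in both BC lung metastases than in both BC primaries and higher in both liver metastases than in both PDAC primaries, and none of these differences was called. Of the 20 regulators on the list, 11 lay below both primaries in BC lung, against 27.0% of all genes, and 5 above both in PDAC liver, against 15.4%. For Foxm1 the differences were -1.11 ± 0.89 in BC lung and 1.45 ± 0.89 in PDAC liver (limma adjusted p = 0.974 and 0.862). E2f2, another E2F gene of the list, differed from E2f1 in being highest in the PDAC lung metastasis, at 66.5 RPKM. It was at 3.92 and 0 in the PDAC primaries and 3.01 and 31.5 in the liver metastases. In PDAC lung 7 of the 20 regulators were positive and 12 negative, against 33.7% and 63.0% of all genes.

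**Figure D5:**
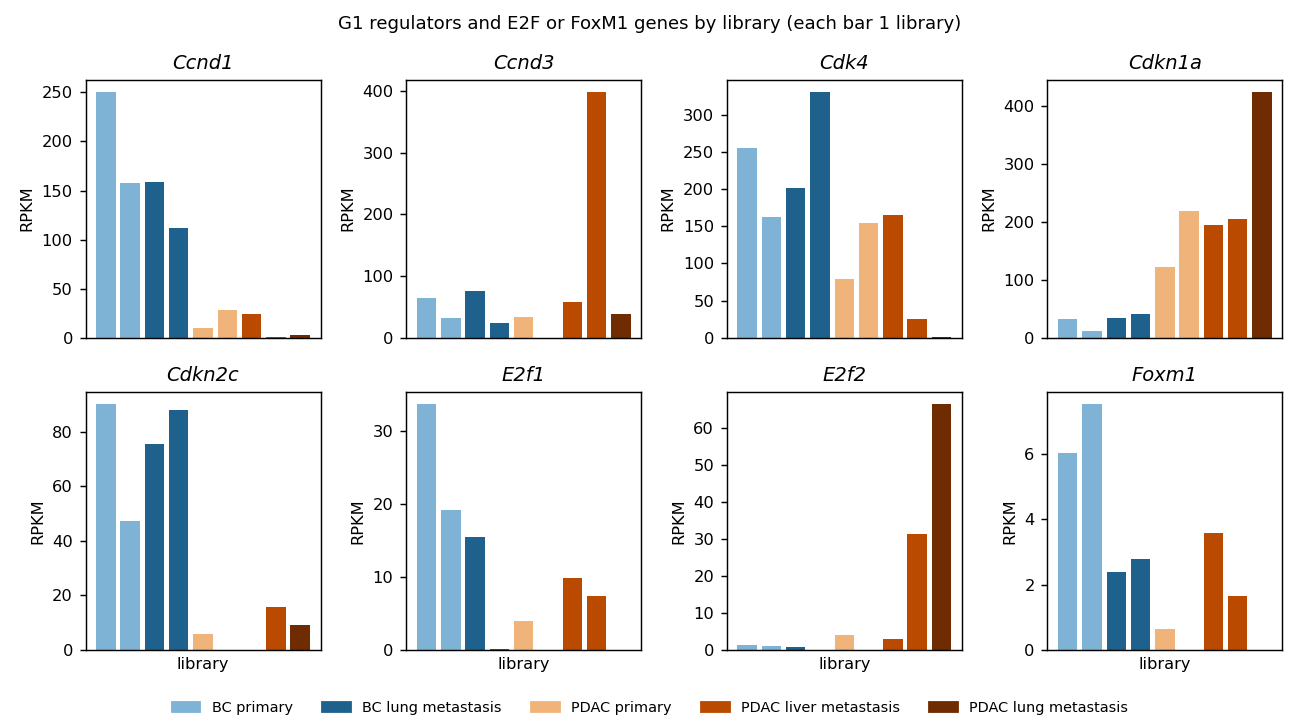
Levels in RPKM (vertical axes, each from 0 on its own scale) of 8 regulators of the cycle, with 1 bar per library coloured by group. Ccnd1 bars are tall only in BC and Cdkn1a bars tallest in PDAC, where the PDAC lung metastasis reaches 425 RPKM.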

How the data were processed

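RNA was sequenced from 9 libraries of sorted mouse tumour cells. RNA was, per the labels' protocols, isolated with RNAqueous-Micro, at least 100 ng entered SMART-seq v4, and Nextera XT libraries were made; this chemistry does not mark strand. Per the submitters' processing notes the reads were placed on mm9; aligner, counter and annotation are not given in the sources used here. Of the authors' files, 1 table was deposited, whose name says CPM but whose columns sum to between 288170 and 992080. Low values multiplied by exonic length (GENCODE M21) were whole multiples of 1 step per library, within 0.02, for 62.8 to 74.4% of them, so the deposited values were read as RPKM, and the test for normalized values was used. A fold change on log2(RPKM + 1) understates that of low genes.

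Tests used limma 3.58.1 (R 4.3.3, statmod 1.5.0) with a mean-variance trend and robust moderation, two-sided, in 1 fit of 5 group means (4 residual degrees of freedom, median prior 6.17), and tumour model as covariate (6 degrees of freedom) for both models together. The procedure was tested on simulated data with the same noise for every gene and library and no libraries of few genes. That run cannot tell how the fit behaves on libraries like these. PDAC primary and liver libraries of the same number share age and genotype and were taken to come from the same mouse. However, their deviations from the group means correlated at -0.165 over 12832 genes. The fits reported did not pair them, and the pairing entered only among the alternatives, as a replicate block on the PDAC numbers. BC groups share no number. Alternatives were other pseudocounts, filters, scalings, fits and left-out libraries. Values in every library are given for 14 chosen members, for the 3 highest and 3 lowest differences of each comparison and for called genes, and other genes were named for their place in these results. The members and lists were chosen with earlier results of these data known. Promoter sequences are RefSeq's, matched by symbol, and play no part in the tests.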

Additional observations from a re-analysis of the deposited data

How the results depend on the processing

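Of 109 counts of called members under alternative settings, 102 were 0, as in the fits reported. The exceptions were 2 in BC lung metastasis against primary with only the groups compared, and 1 in PDAC lung with a pseudocount of 0.1 and 1 with 0.5. Leaving out 1 library at a time gave 0 to 8 in PDAC liver, 0 to 3 in PDAC lung and 0 to 8 between the primaries, the higher counts without a PDAC primary. With the replicate block on the PDAC numbers, 0 members were called, the median in PDAC liver was 2.11 and the block changed no member's call. The median in PDAC lung was then -1.14, with 8 members positive in place of 4. A crossed pairing, added after the data were seen, also called 0. The median with a pseudocount of 0.1 was 3.64 in PDAC liver, -2.33 in PDAC lung, -4.81 between the primaries and 4.70 for the difference between the models. The difference was 1.44 without the 3 libraries with the fewest genes and 1.95 to 4.15 with 1 library left out. Over both models the median was -0.17 after scaling to a common sum without haemoglobin and -0.38 to 0.72 with 1 library left out, and in PDAC lung it was -1.81 to 0.00.

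Single genes changed sign as follows. In PDAC liver, Kif11 was -0.072 with the common sum, -0.0028 with quantile scaling, -0.69 without the 3 libraries and -0.85 to 1.19 with 1 library left out. Mcm6 was 0.29 without the 3 libraries and -2.10 to 0.29 with 1 left out, and Pcna -1.19 to 0.19. Between the primaries, Ube2c was 0.23 without the 3 libraries and -1.37 to 0.23 with 1 left out, positive without BC primary 1 (0.06) or PDAC primary 5. Over both models Mcm3 was 0.46 without the 3 libraries. For the difference between the models, Pcna was -0.0024 with a pseudocount of 0.1 and -0.67 to 0.71 with 1 library left out, Rrm2 was -0.21 to 1.40 with 1 left out, negative without BC primary 1, and Cenpf -0.045 with quantile scaling. The call of Cdk4 in PDAC lung was lost with no filter (limma adjusted p = 0.0985), only the groups compared (0.589), the block (0.116), no robust moderation (0.0540) and without any 1 BC library (0.105 to 0.132). Over all members the mitotic median was below the S-phase median in every library. With only the 9 members above 0 everywhere (4 S-phase and 5 mitotic), the mitotic minus S-phase median changed sign in some libraries. It became 0.29 and 1.98 in BC lung metastases 4 and 6 and 1.46 in PDAC primary 1. In the liver metastases it became 3.13 and 1.88, and in the PDAC lung metastasis 0.17. It stayed negative in BC primaries 1 and 5 (-0.84 and -1.13) and in PDAC primary 5 (-4.80). The cause was not tested for any of these. PDAC lung could not be fitted without its only library, which is also 1 of the 3 libraries with the fewest genes. With 1 or 2 libraries a group, the depth and number of libraries limit every comparison, and values near 0 in the 3 libraries with the fewest genes cannot show that a transcript was absent.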
